A study of Mus musculus with 6 samples.

Results

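The immediate early genes Fos, Fosb, Junb, Egr1, Egr2, Egr4, Arc, Npas4, Nr4a1 and Dusp1 were followed in cortical RNA of mice whose microglia had been ablated. The study describes this tissue as frontal cortex, while it reports neuronal loss in the somatosensory cortex. These 10 genes were taken by symbol from the 23366 genes of a table of FPKM (fragments per kilobase of transcript, scaled to library size) values, and all 10 were among the 14385 that averaged 0.5 FPKM or more across the mice and were tested. The table held 1 library per mouse from 3 microglia-depleted mice at day 10 after depletion (A4, A5 and A6) and 3 non-depleted control mice (A1, A2 and A3), all on a C57BL/6 background. The depleted mice were CX3CR1-CreERT2+/- iDTR+/-, so that tamoxifen made cells that use the CX3CR1 promoter, microglia among them, carry the diphtheria toxin receptor. The study then waited for peripheral monocytes to be replaced by cells without the receptor, and gave diphtheria toxin, which depleted microglia. At day 1 after the toxin, it reports similar levels of CX3CR1-positive myeloid cells in most peripheral tissues examined, and a reduction in the small intestine. The control mice were CX3CR1-CreERT2+/- littermates, which had tamoxifen too but lacked iDTR. The ages of the mice and whether the control mice had the toxin are not given in the sources used here, and an effect of the toxin cannot be told apart from that of the ablation. At day 10, RNA of the microglial genes Cx3cr1 and Csf1r was near the control level. These genes were at 3.94 to 4.91 and 15.1 to 20.6 FPKM in depleted mice, against 3.99 to 4.74 and 16.8 to 21.5 FPKM in control mice. The tissue thus did not lack microglial RNA, and the group name refers to the earlier ablation.

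Immediate early genes are transcribed within minutes of a stimulus, with no need for new protein synthesis, when calcium entry, growth factor receptors or cell stress activate kinases that act on transcription factors already bound at their promoters, among them CREB at cyclic AMP response elements (CRE) and serum response factor at CArG boxes. Most of them encode transcription factors, and their mRNAs are short-lived, so that their level in cortex depends on the recent activity of the tissue. In cortex they are used above all as markers of neurons that were recently active, although astrocytes, microglia and endothelial cells can express several of them.

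The promoter sequences of Egr2, Fos, Dusp1 and Npas4 are shown because these genes cover the range of the values below, from the gene that differed most in depleted mouse A4 to the gene that did not follow the others in that mouse. Of the 10 genes, 8 had an entry in the RefSeq promoter table (GRCm38.p6), and Egr1 and Arc had none. Each window runs from 250 bases before the annotated start to 50 after it. Capitals mark a CArG box, the full CRE (TGACGTCA), the CRE core (TGACG, which also lies within the full CRE) or an EGR site (GCGTGGGCG or GCGGGGGCG), each searched on both strands, with positions counted back from the start site to the first base of the match.
Egr2 promoter, chr10:67537680-67537979, plus strand: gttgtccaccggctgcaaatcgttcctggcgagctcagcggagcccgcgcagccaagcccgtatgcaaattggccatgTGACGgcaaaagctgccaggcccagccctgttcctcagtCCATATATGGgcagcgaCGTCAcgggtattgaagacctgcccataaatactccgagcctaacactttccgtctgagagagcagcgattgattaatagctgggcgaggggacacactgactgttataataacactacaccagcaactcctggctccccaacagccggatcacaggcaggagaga
Fos promoter, chr12:85473640-85473939, plus strand: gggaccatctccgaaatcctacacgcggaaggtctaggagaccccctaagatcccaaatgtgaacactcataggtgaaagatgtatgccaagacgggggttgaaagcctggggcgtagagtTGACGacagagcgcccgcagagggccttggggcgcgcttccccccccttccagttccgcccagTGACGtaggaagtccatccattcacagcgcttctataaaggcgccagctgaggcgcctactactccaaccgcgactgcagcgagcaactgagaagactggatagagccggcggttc
Dusp1 promoter, chr17:26508423-26508722, minus strand: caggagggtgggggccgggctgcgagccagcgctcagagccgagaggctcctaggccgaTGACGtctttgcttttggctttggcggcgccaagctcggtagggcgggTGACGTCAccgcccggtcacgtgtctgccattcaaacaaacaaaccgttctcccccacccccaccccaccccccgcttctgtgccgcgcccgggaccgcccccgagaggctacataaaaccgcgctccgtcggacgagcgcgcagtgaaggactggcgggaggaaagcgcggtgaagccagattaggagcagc
Npas4 promoter, chr19:4989922-4990221, minus strand: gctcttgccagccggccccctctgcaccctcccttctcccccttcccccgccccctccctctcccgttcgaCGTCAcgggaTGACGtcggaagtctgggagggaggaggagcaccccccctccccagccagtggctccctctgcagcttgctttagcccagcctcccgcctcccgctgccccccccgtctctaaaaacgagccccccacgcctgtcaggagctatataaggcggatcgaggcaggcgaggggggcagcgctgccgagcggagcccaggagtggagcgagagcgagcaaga

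The CRE core was found for 8 of 8 genes, against 20.8% of the 32851 promoter windows of 27025 genes. A gene was counted if any of its windows held the match, while the shares of all promoters are per window. Egr2 alone of the 8 had more than 1 window, and not all of its windows held the core. In the Egr2 window shown, which is 1 of 5 annotated for that gene, a CArG box began at -133, between CRE cores at -172 and -116. A CArG box was found for Egr2 alone of the 8 genes, and in 1.63% of all promoters. Bases beyond these windows were not searched, so the lack of a match does not mean that a gene lacks the site. The Fos window held CRE cores at -129 and -66, and the Npas4 window held them at -179 and -169. The full CRE was found in Dusp1 alone of the 8, at -143, against 1.79% of all promoters, and that window held a further CRE core at -191. An EGR site was found in Fosb and Nr4a1, against 3.47% of all promoters. These matches describe letters in a window of fixed length, and binding of a factor was not measured.

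Depleted mouse A4 stood apart from the other 5 mice, so the fold changes of the 10 genes are given with and without it. The summed FPKM of 10 genes of the interferon response ran from 22.2 to 34.7 in control mice and reached 409.9 in A4, against 73.9 in A5 and 71.1 in A6. A4 was also the mouse with RNA of the Y-linked genes Ddx3y, Eif2s3y, Kdm5d and Uty, at a sum of 5.56 FPKM against at most 0.16 in the others, while its Xist was at 30.9 FPKM. Xist was at 4.74 FPKM in control mouse A3 and between 38.1 and 46.7 FPKM in the remaining mice. The labels give no sex, while the study states that its depleted mice and littermate controls were matched for age and sex. The depth behind the values was estimated from the spacing of low FPKM values at about 14.5, 20.6 and 18.2 M fragments for controls A1 to A3, and about 13.7, 3.52 and 11.2 M for depleted mice A4 to A6. These are the smallest depths that the spacing allows, and for A5 a multiple of that depth is possible too. Genes listed at 0 numbered 7144 in A5 and 6849 in A6, against 5834 to 6033 in the other mice. A6 thus listed more genes at 0 than A4, whose estimated depth was not far from its own, and the estimate for A6 is uncertain. At these depths about 39 to 181 fragments lay behind Egr2 in the mice other than A4. If these estimates hold, values of A5 carry the most counting error, followed by those of A6, which was not far from A4. All 8 markers of cortical excitatory neurons, such as Slc17a7, were detected in every mouse. Adora2a and Drd2, known for striatal neurons, were also present, at 12.8 to 14.4 FPKM and 10.1 to 14.2 FPKM in control mice.

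In the comparison of depleted with control mice, none of the 10 immediate early genes passed the test. Their values were high in A4, near the control level in A5 and low in A6. In A4, 9 of the 10 genes were above every control mouse, as were 36% of all genes tested, 0 were below every control mouse (38%), and 5 of the 10 were more than 1 above the control mean on the log2(FPKM + 1) scale, as were 1.82% of all genes tested. In A5, 1 of the 10 was above every control mouse (29.4% of all genes) and 2 were below (32.7%). In A6, 8 of the 10 were below every control mouse, against 33.6% of all genes. A4 was the highest of the 6 mice for 9 of the 10 genes (26.9% of all genes), and A6 the lowest for 8 (19.2%).

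**Figure D1:**
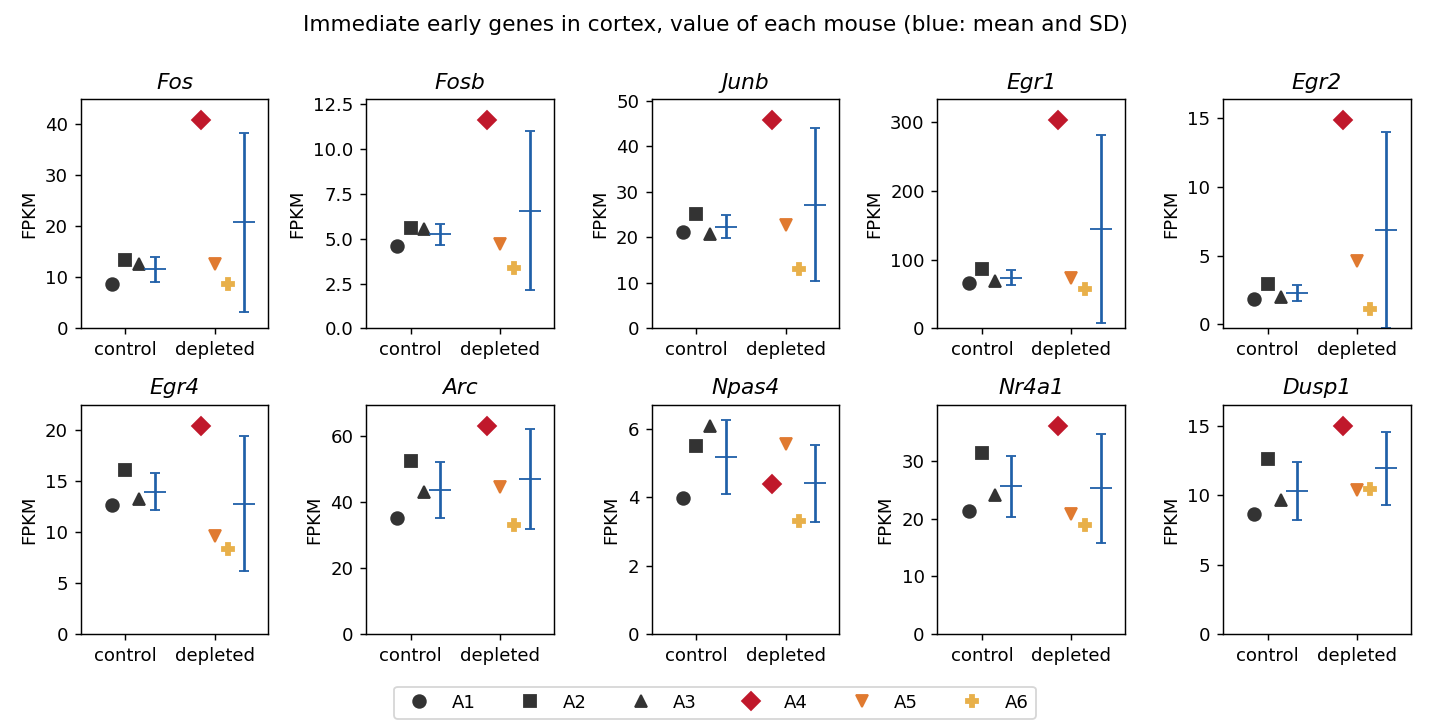
FPKM (y axis) of each of the 10 immediate early genes in 3 control and 3 depleted mice, with 1 point per mouse and, in blue, the mean and SD of each group (n = 3). A4 lies above all other mice in every panel but that of Npas4, where it was at 4.37 FPKM.

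Fos, Fosb and Junb encode subunits of the transcription factor AP-1, which binds DNA as a dimer. Fos (chromosome 12, 85473890 to 85477273 in GRCm38) gave 8.75, 13.3 and 12.7 FPKM in controls A1 to A3, and 40.7, 12.7 and 8.76 FPKM in depleted mice A4 to A6. A4 was 3.51 times the control mean, while A5 and A6 lay within the range of the control mice. The group means were 11.6 ± 2.47 (SD, n = 3) and 20.7 ± 17.4 FPKM (SD, n = 3). On the log2(FPKM + 1) scale the difference, called the log2 fold change here, was 0.51 (standard error, SE, 0.46, limma adjusted p = 0.710), and it was -0.10 without A4.

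Fosb (chromosome 7, 19302696 to 19310051) gave 4.57, 5.62 and 5.56 FPKM in controls A1 to A3, and 11.6, 4.73 and 3.35 FPKM in depleted mice A4 to A6. A4 was again the highest mouse, at 2.21 times the control mean, and A6 was the lowest. The log2 fold change was 0.13 (SE 0.34, limma adjusted p = 0.917). Junb (chromosome 8, 84974484 to 84978718) gave 21.1, 25.2 and 20.7 FPKM in controls A1 to A3, and 45.8, 22.8 and 13.1 FPKM in depleted mice A4 to A6. Its 3 depleted mice thus lay above, within and below the range of the control mice. The log2 fold change was 0.10 (SE 0.36, limma adjusted p = 0.941), and exons of Junb are overlapped by Prdx2 on the other strand. Without A4, Fosb was at -0.32 and Junb at -0.35.

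Egr1, Egr2 and Egr4 encode zinc finger transcription factors that bind GC-rich sites. Egr1 (chromosome 18, 34859823 to 34864984) had the highest FPKM of the 10 genes in every mouse, at 65.8, 87.0 and 68.8 in control mice and 302.6, 73.5 and 57.3 in A4, A5 and A6. A4 was 4.10 times the control mean, A5 lay within the control range and A6 below it. The log2 fold change of 0.56 (SE 0.52, limma adjusted p = 0.723) became -0.17 without A4.

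Egr2 (chromosome 10, 67535475 to 67542188), whose promoter window with the CArG box is shown above, was the lowest of the 10 genes in control mice, at 1.89, 2.96 and 2.03 FPKM. In depleted mice A4 to A6 it gave 14.9, 4.61 and 1.16 FPKM. A4 was 6.49 times the control mean and A5 2.01 times, while A6 was below every control mouse. At the estimated depths, which are uncertain, about 48 fragments lay behind the value of A5 and about 39 behind that of A6. The log2 fold change was 0.82 (SE 0.59, limma adjusted p = 0.647), the largest of the 10, and it was 0.09 without A4. Egr4 (chromosome 6, 85511121 to 85513589) gave 12.7, 16.0 and 13.2 FPKM in controls A1 to A3, and 20.4, 9.57 and 8.35 FPKM in depleted mice A4 to A6. A4 was above and both other depleted mice were below every control mouse. The log2 fold change was -0.21 (SE 0.28, limma adjusted p = 0.811).

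Npas4, a transcription factor that in neurons is switched on mainly by calcium entry on depolarization and little by growth factors, did not follow the other genes in A4. Npas4 (chromosome 19, 4984355 to 4990316) gave 3.96, 5.48 and 6.08 FPKM in controls A1 to A3, and 4.37, 5.54 and 3.30 FPKM in depleted mice A4 to A6. A4 and A5 lay within the control range and A6 below it. Its log2 fold change was -0.20 (SE 0.19, limma adjusted p = 0.734), with a 95% interval from -0.63 to 0.24, and -0.20 without A4. Nr4a1 (chromosome 15, 101254269 to 101274795), which encodes the orphan nuclear receptor Nur77, gave 21.3, 31.4 and 24.1 FPKM in controls A1 to A3, and 36.1, 20.7 and 19.0 FPKM in depleted mice A4 to A6. A4 was above and A5 and A6 were below every control mouse, and the group means of 25.6 ± 5.22 (SD, n = 3) and 25.3 ± 9.41 FPKM (SD, n = 3) differed by less than either SD. The log2 fold change of Nr4a1 was -0.06 (SE 0.23, limma adjusted p = 0.951), and -0.33 with A4 left out.

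Arc and Dusp1 encode no transcription factor. Arc, a postsynaptic protein that promotes the removal of AMPA receptors from the synapse, lies on chromosome 15 from 74669083 to 74672570. It gave 35.3, 52.4 and 43.3 FPKM in controls A1 to A3, and 63.2, 44.7 and 33.2 FPKM in depleted mice A4 to A6, so that A4 was 1.45 times the control mean and A6 0.761 times. Dusp1, a phosphatase that switches off MAP kinases, lies on chromosome 17 from 26505590 to 26562128, and its promoter window above holds the full CRE. It gave 8.63, 12.6 and 9.67 FPKM in controls A1 to A3, and 14.99, 10.35 and 10.44 FPKM in depleted mice A4 to A6. Dusp1 was the gene for which A6 lay nearest to the control mean, at 1.01 times. Exons of Dusp1 are overlapped by Ergic1 on the other strand. Whether the counting used strand is not given in the sources used here, so that reads of Junb and Prdx2, or of Dusp1 and Ergic1, may not have been told apart where they overlap. Log2 fold changes were 0.08 (SE 0.22) for Arc and 0.19 (SE 0.17) for Dusp1, with limma adjusted p-values of 0.925 and 0.717, and without A4 they were -0.16 and 0.03.

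In limma on log2(FPKM + 1), 0 of the 10 genes had an adjusted p-value under 0.1, where 0.0278% of all genes tested did, and 0 had an unadjusted p-value under 0.05, where 10.5% did. Adjusted p-values of the 10 ran from 0.647 to 0.951. The mice of the groups overlapped in each of the 10 genes, while all depleted mice were above all control mice in 8.21% of the genes tested and below them in 9.38%. Exact two-sided permutation tests of the group means gave p-values from 0.4 for Egr2 to 0.9, the smallest p-value that 3 mice against 3 can reach being 0.1. The median log2 fold change of the 10 genes was 0.11, and -0.19 without A4, against -0.01 over all genes tested in both cases. The 95% intervals were wide where A4 was far from the other mice, from -0.53 to 2.18 for Egr2 and from -0.63 to 1.76 for Egr1. The same fit called 0 of the 10 interferon response genes, with a lowest adjusted p-value of 0.370 in limma. Yet all depleted mice were above all control mice in each of those 10, against 8.21% of all genes. Failing the threshold in this fit thus does not show that a gene was unchanged.

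With A4 left out, the log2 fold change was below 0 for 8 of the 10 genes, Egr2 and Dusp1 being the others. The median over all genes tested was then -0.01. A4 was the highest mouse for 9 of the 10 genes, so leaving it out had to lower these. Leaving out A6 instead, the lowest mouse for 8 of the 10, gave the 10 genes a median of 0.37. Without A4, the gene farthest from 0 was Egr4, at -0.58 (SE 0.12, limma adjusted p = 0.168, from 0.168 to 0.988 over its alternatives). Egr4 was the only 1 of the 10 with an unadjusted limma p-value under 0.05, against 13.2% of all genes. The adjusted threshold was passed by 0 of the 10 and by 0.154% of all genes. A5 and A6 were below all 3 control mice for Egr4 and Nr4a1, 2 of the 10 genes, against 15.7% of all genes. With 2 depleted mice left, of which A5 had the lowest estimated depth, these values have little weight.

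**Figure D2:**
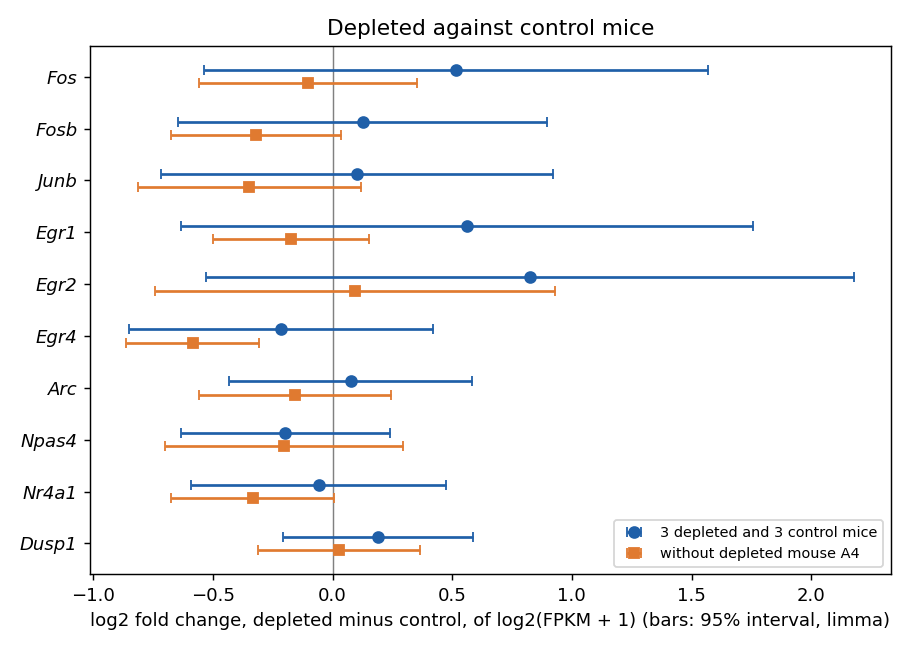
Log2 fold change of each gene, depleted minus control, on the log2(FPKM + 1) scale (x axis), with 95% intervals from limma, for all 6 mice (circles) and without A4 (squares). All 10 intervals from the 6 mice include 0, and without A4 only that of Egr4, from -0.86 to -0.31, does not.

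A list of 30 other genes that are rapidly induced by activity, growth factors or stress was compared in the same way. None of the 30 passed the threshold, and the lowest adjusted p-value was 0.463 in limma. On the log2 scale the median of their differences from the control mean came to 0.37 in A4, 0.02 in A5 and -0.17 in A6, the same order as the 10 genes, at 0.77, 0.03 and -0.45. In A4, 20 of the 30 were above every control mouse (36% of all genes) and 8 were more than 1 above the control mean (1.82% of all genes). The median log2 fold change of the list was 0.09, and -0.10 without A4. The median without A4 leaves out Maff, which then fell under the filter on mean FPKM. The gene with the largest log2 fold change was Jun, the main partner of Fos in AP-1, with 12.8, 13.5 and 14.5 FPKM in controls A1 to A3, and 54.9, 14.5 and 15.3 FPKM in depleted mice A4 to A6 (log2 fold change 0.73, limma adjusted p = 0.579). Without A4 the log2 fold change of Jun was 0.12. Maff, a small Maf transcription factor, ranged over 0.35 to 0.64 FPKM in controls, and gave 5.56, 0.16 and 0.34 FPKM in A4 to A6. It is counted among the 8, yet it passed the filter of 0.5 FPKM only through A4. The other 6 of the 8 were Ier2, Gadd45b, Dusp5, Csrnp1, Klf10 and Atf3, which were named after their values were seen.

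Further members of the list varied. Egr3, a relative of Egr1, was at 33.9 FPKM in A4 against 21.0 to 26.9 in control mice, and Per1, a clock gene that cyclic AMP signals induce, at 51.6 against 26.7 to 30.8. Not every rapid gene was above the control mice in A4. Nr4a2 was at 8.66 FPKM there, within the control range of 8.22 to 10.1, and Fosl2 at 5.85, just below the control range of 6.06 to 8.24. Nr4a3 had the smallest log2 fold change of the list, at -0.34 (limma adjusted p = 0.475) and -0.40 without A4, from 3.74 to 5.22 FPKM in control mice to 2.81 to 3.71 in depleted mice. Egr3, Per1, Nr4a2 and Fosl2 were named after their values were seen.

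**Figure D3:**
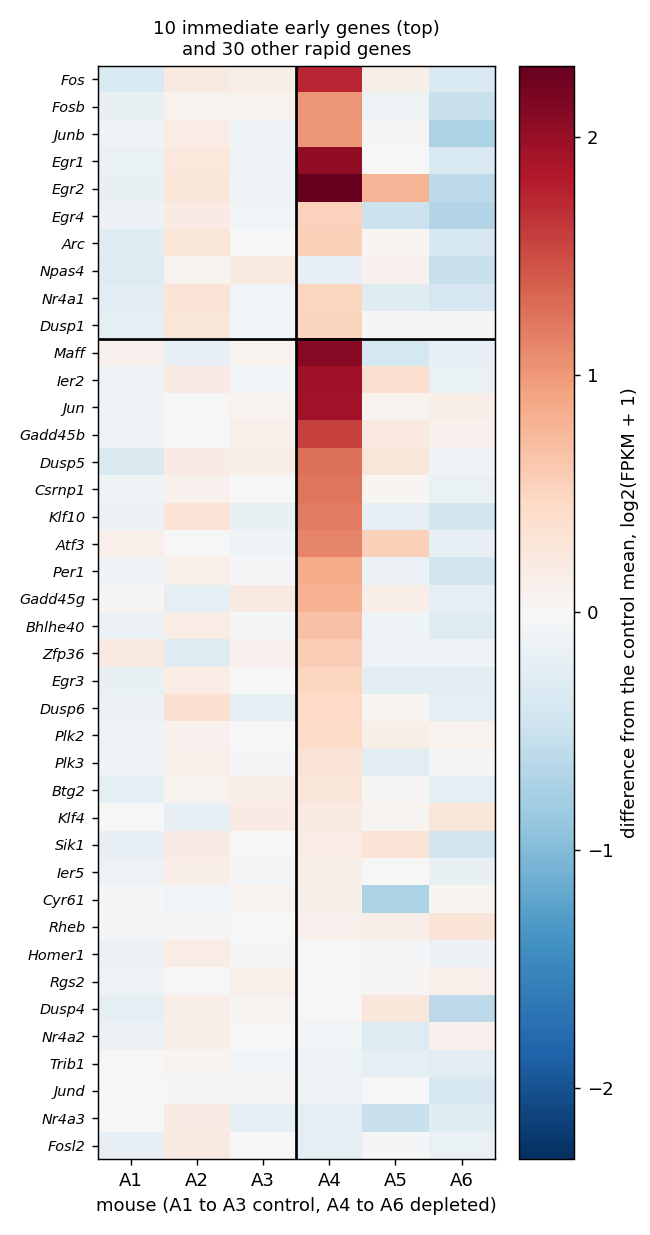
Difference of each mouse (columns) from the control mean on the log2(FPKM + 1) scale (color) for the 10 immediate early genes (above the line) and the 30 other rapid genes (below it, ordered by A4). Red is higher and blue lower, and the strongest red, in the column of A4, is Egr2 at 2.28, followed by Maff at 2.10 and Egr1 at 2.03. Maff passed the filter on mean FPKM only through A4.

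Genes that follow the immediate early genes with a delay, 18 in all, had a median difference from the control mean of 0.06 in A4, 0.05 in A5 and 0.04 in A6, and none passed the threshold with all mice. In A4, 7 of the 18 were above and 6 below every control mouse, shares near or under the 36% and 38% of all genes. Inhba, which encodes a subunit of activin, lay between 1.15 and 1.35 FPKM in control mice, and gave 2.45, 2.19 and 1.91 FPKM in A4 to A6, with a log2 fold change of 0.50 (SE 0.14, limma adjusted p = 0.370), and 0.44 without A4. At the other end was Cort, the peptide cortistatin of a class of interneurons, at 7.41 to 10.8 FPKM in control mice and 0.58, 3.36 and 2.13 FPKM after depletion, and its log2 fold change was -1.82 (SE 0.33, limma adjusted p = 0.283). Without A4 it was -1.41, with a limma adjusted p of 0.0920, and Cort then passed the threshold. In both genes the groups did not overlap, as in 8.21% of all genes with the depleted mice higher and 9.38% with them lower.

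The 36 genes for receptors, kinases and transcription factors that act upstream of the immediate early genes had a median log2 fold change of 0.02, or -0.03 without A4, and none passed the threshold, with a lowest adjusted p-value of 0.418 in limma. Mef2c, an activity-regulated transcription factor, had the largest log2 fold change, at 0.26, with 131.6 FPKM in A4 and 75.8 to 94.8 FPKM in the other mice. Camkk2, a calcium-dependent kinase, had the smallest, at -0.36, with 31.1 FPKM in A4 and 57.6 to 66.0 FPKM in the other mice. Without A4, Mef2c was at 0.06 and Camkk2 at -0.06.

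**Figure D4:**
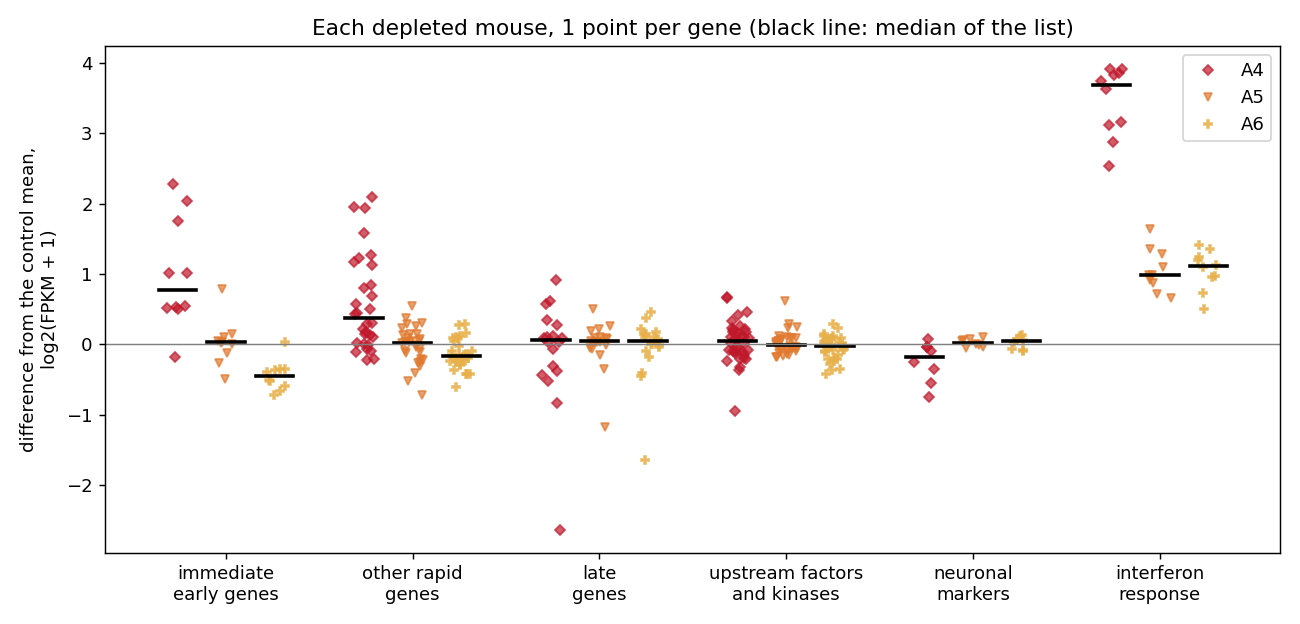
Difference of each depleted mouse from the control mean on the log2(FPKM + 1) scale (y axis), with 1 point per gene and a black line at the median of each list. In A4 the immediate early genes have a median of 0.77, the late genes 0.06, the neuronal markers -0.18 and the interferon genes 3.69.

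Markers of several cell types differed in A4 too, and some in all depleted mice. The counts below stand beside shares of all genes of 36% above and 38% below every control mouse in A4, 32.7% below in A5 and 33.6% below in A6. The summed FPKM of 8 neuronal markers was 2385 in A4, 2711 in both A5 and A6, and from 2527 to 2805 in control mice, with 5 of the 8 below every control mouse in A4. Those of cortical excitatory neurons summed to 1072 in A4, 1218 in A5, 1214 in A6 and 1252 to 1466 in control mice. Much of this difference was Nrgn, at 645.4, 750.4 and 788.2 FPKM in A4 to A6 against 841.9 to 986.7 in controls, and the other 7 markers summed to 427.0, 467.4 and 425.8 against 409.7 to 479.5. Of 6 markers of striatal projection neurons, 5 were below every control mouse in A4, with Drd2 at 4.88 and Adora2a at 6.70 FPKM, while 0 were in A5 and 1 was in A6. Of 6 thalamic markers, 5 were below in A4, 2 in A5 and 3 in A6. Ttr, the transthyretin gene, abundant in choroid plexus, was lower in all depleted mice, with 64.3, 40.9 and 59.9 FPKM against 160.1 to 313.7 in controls. The 6 oligodendrocyte markers were all below every control mouse in A4 and A5, and 4 of 6 were in A6. The 8 microglial markers summed to 200.6, 133.8 and 171.2 in A4, A5 and A6 and to 119.0 to 140.7 in control mice, with none at 0 in any mouse, and 5 of the 8 were above every control mouse in A4. Among them Aif1 was at 7.34 to 14.3 FPKM in depleted and 5.88 to 6.49 FPKM in control mice, and P2ry12, a marker of resting microglia, at 6.45 to 7.91 and 8.50 to 10.2 FPKM. Gfap, the astrocyte filament protein, was at 300.3, 108.5 and 120.1 FPKM in A4 to A6 against 64.5 to 88.3 in controls, although 4 of the 6 astrocyte markers were below every control mouse in A4. The 6 endothelial markers summed to 53.56, 50.96 and 50.03 in A4 to A6, against 41.8 to 47.4 in controls. Of 10 glucocorticoid and stress genes, 5 were above and 5 below every control mouse in A4, where the median difference from the control mean was 0.04. Among them Cdkn1a was at 44.6 and Fkbp5 at 32.96 FPKM in A4, against 10.94 to 13.04 and 15.8 to 17.2 FPKM in control mice. The heat shock genes Hspa1a and Hsph1 were lower in A4 than in any control mouse. The part of these shifts in the values of the immediate early genes was not tested, and in bulk tissue fewer cells of a type and less RNA per cell cannot be told apart.

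Control mice differed among themselves in the same genes. A2 was the highest control mouse for 9 of the 10 genes, Npas4 being the other, where 33.7% of all genes had A2 highest, and A1 was the lowest control mouse for 9, Junb being the other, against 32.8% of all genes. Of 4907 genes outside the activity lists with an SD of at least 0.2 over the 6 mice, the 8 most like the mean profile of the 10 genes were Cd7, Cercam, Msh3, Gpsm2, Tex30, 9130019P16Rik, Golm1 and 1500015A07Rik, with a Pearson r over the 6 mice from 0.968 to 0.997. Cd7 gave 0.46, 1.12 and 0.78 FPKM in controls A1 to A3, and 2.08, 0.81 and 0.26 FPKM in depleted mice A4 to A6. Msh3, a DNA mismatch repair gene, gave 5.52, 6.70 and 6.01 FPKM in the controls and 7.78, 5.94 and 4.65 FPKM after depletion. These genes were picked for their likeness out of all those compared, so that values near 1 describe the choice and carry no test.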

How the data were processed

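Poly(A) libraries of cortical RNA from 6 mice were sequenced with 75 bp paired-end reads. Reads were aligned with TopHat and quantified with RSEM on known transcripts, and the authors deposited FPKM values scaled with TMM factors. The submitters' processing notes name mm9 and DESeq; the annotation and tool versions are not given in the sources used here. On the log2(FPKM + 1) scale, depleted mice were set against control mice in limma (version 3.58.1, R 4.3.3) by a linear model with a trended eBayes prior. P-values were adjusted by Benjamini-Hochberg over the 14385 genes that averaged 0.5 FPKM or more, at the study's threshold of 0.1. The labels give no batch, and the spread between mice is all that the p-values measure. The added 1 shrinks the log2 fold change where FPKM is low. The fit was tested on simulated data in which both groups had the spread of the control mice. That simulation does not cover a group in which a mouse lies far from the others, as A4 did.

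The fragments behind the values were estimated from 1813 genes with a single transcript of 400 to 1500 bases, as the smallest depth at which low values were near whole multiples of 1 fragment (score within 90% of the best). From 74.4% to 77.9% of the low values then lay within 0.15 of a whole number. The estimate says nothing of duplicate reads. Positions and transcript lengths came from GENCODE M21 (GRCm38) by gene symbol, since the table holds no coordinates and its build is mm9, and none of the 10 genes shared a 75-base window with another gene's transcripts.

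The 10 genes, the lists and the alternatives were chosen with earlier results of these data known. Genes named by rule were the 10, the genes with the largest and smallest log2 fold change of each other activity list, genes of these lists past the threshold, and the 8 genes most like the mean profile. Other genes named, among them those of the cell type and stress lists, fell outside this rule and were picked with their values known. The alternatives tried were another pseudocount (0.1), the table unfiltered or filtered at 1 FPKM, median-of-ratios scaling, rescaling to TPM, array weights, eBayes without trend, robust eBayes, a threshold of 0.05 and leaving out each mouse. Exact tests used scipy 1.17.1 under Python 3.11.15, and figures matplotlib 3.10.9.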

Additional observations from a re-analysis of the deposited data

How the results depend on the processing

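The count of immediate early genes past the threshold was 0 of 10 under every alternative run, and their lowest adjusted p-value over all of them was 0.168, for Egr4 without A4. The count over all genes was 4, and 20 with array weights, 2 in eBayes without trend, and from 2 to 29 with a mouse left out (2 without A1, 22 without A4, 29 without A5, 8 without A6). The median log2 fold change of the 10 genes was 0.11, -0.011 with array weights, and from -0.19 without A4 to 0.37 with a mouse left out, and with array weights Fosb was at -0.054 and Junb at -0.070. Leaving out a mouse moved Fos from -0.10 to 0.945, Fosb from -0.32 to 0.45, Junb from -0.35 to 0.52, Egr1 from -0.17 to 1.02, Egr4 from -0.58 to 0.014, Arc from -0.16 to 0.30 and Nr4a1 from -0.33 to 0.11. The lowest value of each was without A4 and the highest without A6. Of 100 fold changes of single genes under the alternatives that can move one, 88 kept their direction. No paired analysis was possible because the labels give the mice no shared replicate numbers. The design of 3 mice against 3 limits what can be detected.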
